A study of Mus musculus with 6 samples.

Results

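Genes that handle copper are described here in lung epithelium of E16.5 mouse embryos. The set holds 9 genes of 27179 in the deposited table, found by matching Entrez numbers to the symbols Atox1, Slc31a1, Slc31a2, Atp7a, Atp7b, Ccs, Cox17, Commd1 and Sod1. All 9 had a row and passed the filter on low counts. The set was drawn up because Atox1 was lower in the knockout, so the values of Atox1 are given as a description with no test, and the question put to the data is whether the other 8 genes fell with it.

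Knockout samples, called Grhl2_cKO, had the genotype Shh-Cre;Grhl2f/-, with a floxed and a null allele of Grhl2 (n = 3, replicates 1, 5 and 10). Control samples had the genotype Shh-Cre;Grhl2f/+, with a floxed and an intact allele (n = 3, replicates 1, 3 and 7). Grhl2 encodes grainyhead-like 2, a transcription factor of epithelia. Shh-Cre, carried by both groups, is a Cre recombinase under the control of the Sonic hedgehog gene, which is active in embryonic lung epithelium, so where it acted the controls are left with a single intact Grhl2 allele. Each group held 2 male libraries and 1 female library, and the cells had been sorted by flow for the surface protein EpCAM. The labels do not say whether a sample was 1 embryo, so the p-values reflect how these samples vary, which may be technical.

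Copper is needed by a small group of enzymes and is toxic when free, so cells pass it from protein to protein. It enters through the membrane transporter CTR1 (gene Slc31a1) and is handed to small carriers called copper chaperones. Atox1 takes it to the copper pumps ATP7A and ATP7B in the secretory pathway, Ccs takes it to superoxide dismutase 1 (gene Sod1), and Cox17 takes it towards cytochrome c oxidase in mitochondria. The pumps load enzymes that are secreted or held in membranes, among them the lysyl oxidases that cross-link collagen and elastin, and they move excess copper out of the cell.

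Atox1 and the pumps share a copper-binding motif of methionine, any residue, cysteine, any 2 residues and cysteine. The open reading frame of Atox1 (207 bases, 68 codons, chromosome 11, minus strand; GENCODE transcript, build GRCm38) is shown because Atox1 is the gene on which the results turn, with the codons of the motif in capitals.
Atox1 frame: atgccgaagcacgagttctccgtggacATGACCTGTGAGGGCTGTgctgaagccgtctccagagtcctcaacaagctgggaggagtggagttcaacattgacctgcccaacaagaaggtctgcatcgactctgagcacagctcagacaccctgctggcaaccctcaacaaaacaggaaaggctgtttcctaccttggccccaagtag

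The same in-frame motif was found once in Ccs, 6 times in Atp7a and 5 times in Atp7b, and in none of the other 5 members. Of 21654 mouse genes with an open reading frame of 150 bases or more, 287 (1.33%) held it at least once, and 2, which are Atp7a and Atp7b, held it 4 times or more. The 18-base sites of Atox1 and its partners are set side by side because Atox1 and Ccs carry the motif as chaperones and Atp7a and Atp7b carry it as the pumps that Atox1 serves.
Atox1 site: ATGACCTGTGAGGGCTGT
Ccs site: ATGAGTTGTCAGAGCTGT
Atp7a site 1: ATGACATGTATTTCCTGT
Atp7a site 6: ATGACGTGTGCTTCCTGT
Atp7b site 1: ATGACTTGTCATTCTTGC
Atp7b site 5: ATGACCTGTGCTTCCTGT

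The fall of Atox1 was not seen in the other copper handling genes. Values are CPM (counts per 1000000 counts of the library, with library sizes scaled by the TMM method). Atox1 (Entrez 11927, mm10 chromosome 11, 55446637 to 55461208) stood at 60.0, 53.8 and 61.3 CPM in Grhl2_cKO replicates 1, 5 and 10, against 138.3, 138.3 and 125.2 CPM in control replicates 1, 3 and 7. The knockout libraries lay close together and all below the lowest control, as was so for 9.89% of all tested genes. The means were 58.4 ± 4.02 CPM in Grhl2_cKO and 133.9 ± 7.58 CPM in controls (SD, n = 3 each), and the log2 fold change was -1.20 ± 0.07 (SE), or 43.6% of control with a 95% interval of 39.1% to 48.6%. Since this fall chose the set, the SE and the interval are part of the description and are not corrected for that choice. The fold change rested on 838 to 2272 counts per library, where counting alone gives an error of 3.45% at the lowest count.

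None of the other 8 members passed the test. The test was edgeR's quasi-likelihood test with Benjamini-Hochberg adjustment over 14842 genes and a threshold of 0.05, by which 3.62% of all tested genes changed, 2.39% lower and 1.23% higher. At an unadjusted p under 0.05 the count among the 8 was also 0, against 13.3% of all genes, and it was 0 with DESeq2 and with limma-voom at the adjusted threshold. Their log2 fold changes ran from -0.10 to 0.11, with a median of -0.07 against -0.0039 over all genes tested. Of the 8, 6 were below 0, as were 51.5% of all genes. The 95% intervals bound how large an unseen fall could be: the lowest bound among the 8 was 78.5% of control, for Slc31a2, so each interval left out a fall of the size seen for Atox1.

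**Figure D1:**
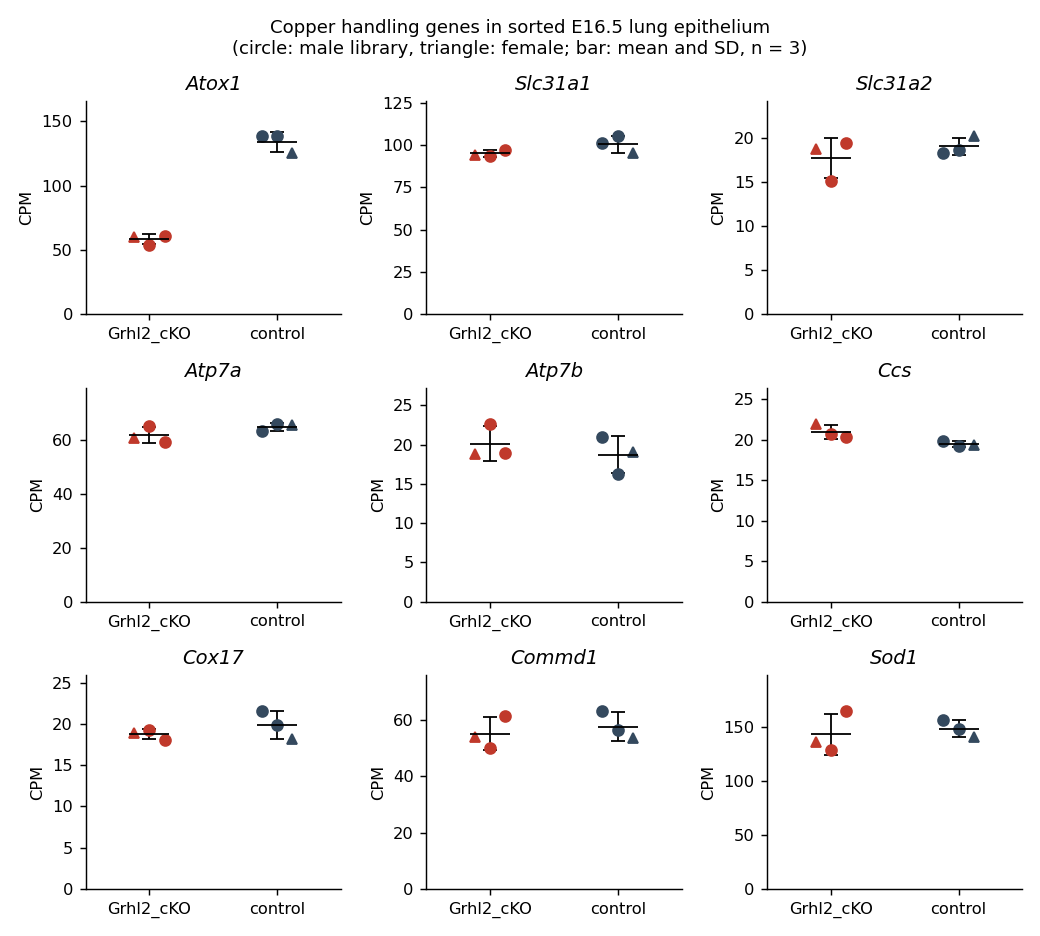
CPM of the 9 copper handling genes (vertical axes from 0) in the 3 Grhl2_cKO and the 3 control libraries; circles are male libraries, triangles female libraries, and bars show the mean and SD. Atox1 stands at 53.8 to 61.3 CPM in Grhl2_cKO and at 125.2 to 138.3 CPM in controls, while the ranges of the other genes overlap or, for Ccs, lie close together.

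Of the uptake genes, Slc31a1 (chromosome 4, 62360583 to 62391769), the main importer, stood at 94.3, 93.4 and 97.2 CPM in Grhl2_cKO replicates 1, 5 and 10, against 101.3, 105.03 and 95.1 CPM in control replicates 1, 3 and 7. The highest knockout library was above the lowest control. This was a log2 fold change of -0.08 ± 0.06 (SE, n = 3 in each group, edgeR adjusted p = 0.704), or 94.6% of control with a 95% interval of 86.4% to 103.5%. Slc31a2 (chromosome 4, 62280393 to 62298412) encodes CTR2, a related membrane protein found mostly on internal vesicles. It stood at 18.8, 15.2 and 19.4 CPM in Grhl2_cKO and at 18.3, 18.7 and 20.2 CPM in controls (edgeR adjusted p = 0.853). Grhl2_cKO replicate 5 was the lowest library, and the other knockout libraries lay within the control range.

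Of the chaperones beside Atox1, Ccs (chromosome 19, 4825366 to 4839356) stood at 22.01, 20.7 and 20.4 CPM in Grhl2_cKO replicates 1, 5 and 10, against 19.9, 19.2 and 19.4 CPM in control replicates 1, 3 and 7. All knockout libraries lay above all controls, as they did for 8.17% of all tested genes, but the gap between the groups was small beside the level. The log2 fold change was 0.11 ± 0.08 (edgeR adjusted p = 0.725), with a 95% interval of 94.9% to 122.9% of control. Cox17 (chromosome 16, 38346983 to 38352763), which takes copper towards cytochrome c oxidase in mitochondria, stood at 18.9, 19.3 and 18.1 CPM in Grhl2_cKO and at 21.6, 19.9 and 18.2 CPM in controls (log2 fold change -0.08 ± 0.09, edgeR adjusted p = 0.853). Its groups overlapped, and the spread was wider among controls. Neither chaperone had an interval that reached the fall of Atox1.

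The pumps that receive copper from Atox1 showed no such fall. Atp7a (X chromosome, 106027224 to 106128161) stood at 60.8, 65.1 and 59.4 CPM in Grhl2_cKO replicates 1, 5 and 10, against 63.4, 66.1 and 65.6 CPM in control replicates 1, 3 and 7. The groups overlapped, and the log2 fold change was -0.07 ± 0.06 (edgeR adjusted p = 0.759), with a 95% interval of 86.4% to 104.5% of control. Because Atp7a lies on the X chromosome and each group held both sexes, it was also tested with sex as a covariate and in the male libraries only, and it passed in neither. Atp7b (chromosome 8, 21992783 to 22060074) stood at 18.8, 22.7 and 18.9 CPM in Grhl2_cKO and at 20.9, 16.2 and 19.04 CPM in controls, a difference of 0.10 ± 0.12 on the log2 scale (edgeR adjusted p = 0.864). Its highest library was Grhl2_cKO replicate 5 and its lowest was control replicate 3.

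Commd1 (chromosome 11, 22899728 to 22984539) encodes a protein that takes part in the traffic and stability of the copper pumps. It stood at 53.99, 49.9 and 61.3 CPM in Grhl2_cKO replicates 1, 5 and 10, against 63.1, 56.2 and 53.4 CPM in control replicates 1, 3 and 7, in overlapping ranges (log2 fold change -0.06 ± 0.09, edgeR adjusted p = 0.906). Commd1 lies on the same chromosome as Atox1 and shares exon bases with Zrsr1 on the opposite strand. Whether strand was used in counting is not stated in the labels, so some reads may be shared. Zrsr1 was at 12.1 to 14.8 CPM in Grhl2_cKO and 11.2 to 14.6 CPM in controls.

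Sod1 (chromosome 16, 90220762 to 90226333), the copper and zinc enzyme that removes superoxide, stood at 136.0, 128.9 and 164.7 CPM in Grhl2_cKO replicates 1, 5 and 10, against 156.1, 147.8 and 140.7 CPM in control replicates 1, 3 and 7. The knockout libraries spread on both sides of the control range. The log2 fold change was -0.05 ± 0.09 (edgeR adjusted p = 0.934), with a 95% interval of 84.2% to 110.8% of control. An annotated pseudogene matches the Sod1 reading frame at 97.8% identity over 465 bases. Cox17 shares 192 identical bases with the overlapping gene Gm21987, and Commd1 shares up to 295 identical bases and exons on its own strand with Gm28048. The counts of Sod1, Cox17 and Commd1 are therefore uncertain, since reads with several matches or in shared exons may have been split or left out. No annotated transcript of another gene matched the frame of Atox1, at 90% identity over 100 bases or more.

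**Figure D2:**
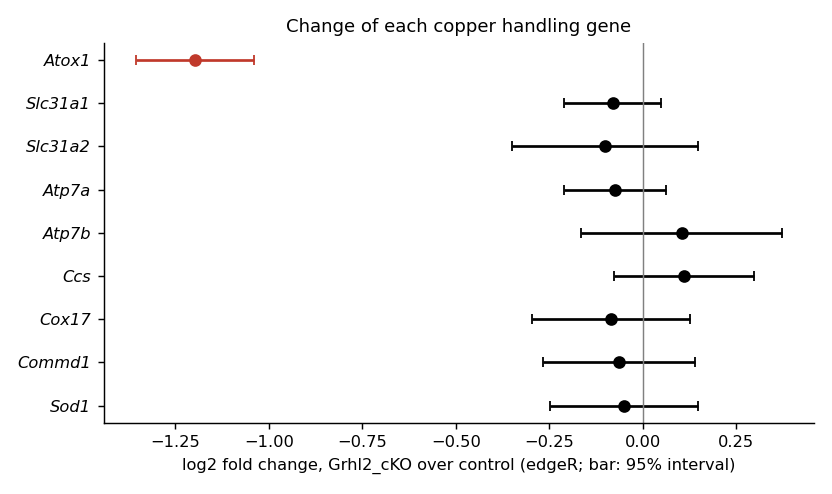
Log2 fold change of each copper handling gene, Grhl2_cKO over control (horizontal axis), with the 95% interval of the edgeR fit as a bar. The bar of Atox1 is a description, since its fall chose the set. Atox1 lies at -1.20 and the other 8 genes lie between -0.10 and 0.11 with intervals that include 0.

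On a scale that allows genes to be compared, CPM per kilobase of the length deposited beside the counts, the order of the set differed between the groups at its top. In Grhl2_cKO, Sod1 came first with a mean level of 221.0 ± 29.2 CPM per kilobase and Atox1 was second with 133.3 ± 9.17. In controls, Atox1 came first with 305.8 ± 17.3 CPM per kilobase and Sod1 was second with 228.7 ± 11.9 (SD, n = 3 each). From the third place down the order was the same in both groups. Mean levels per kilobase in Grhl2_cKO and in controls were 67.3 and 70.4 for Commd1, 43.02 and 45.6 for Cox17, 25.4 and 26.8 for Slc31a1, 19.9 and 18.4 for Ccs, 9.75 and 10.5 for Slc31a2, 7.58 and 7.98 for Atp7a, and 4.27 and 3.97 for Atp7b. Within each group no neighbours in this order overlapped in range. Atox1 and Cox17 are short, at 438 and 436 bases, so their levels per kilobase depend more on how fragments at transcript ends were counted.

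The balance of Atox1 with its partners was lower in each knockout library, as follows from the fall of Atox1 alone. The ratio of Atox1 to Atp7a in CPM was 0.826 to 1.03 in Grhl2_cKO libraries and 1.91 to 2.18 in control libraries. The ratio of Atox1 to Slc31a1 was 0.576 to 0.636 in Grhl2_cKO libraries and 1.32 to 1.37 in control libraries. These ratios describe unequal change of RNA levels and carry no test, since Atox1 chose the set.

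In 8 wider lists, of the copper pathway and of genes set beside it, 96 of 105 genes were tested. Of the 96, 2 fell and 1 rose, against 2.39% and 1.23% of all genes. The lists include 19 antioxidant enzyme genes given beside Sod1, and Prdx3, 1 of the 2 that fell, is among these. The median log2 fold change of the 96 was -0.0037, against -0.0039 over all genes tested, and 53 of the 96 lay below 0. At an unadjusted p under 0.05, 5 of the 96 passed, against 13.3% of all genes. The lists were written with earlier results of these data known, and no test of the lists as sets was made.

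Among secretory cuproenzymes, the enzymes whose copper comes through ATP7A and ATP7B, 1 of 10 tested members rose and 1 fell. Of all tested genes 1.23% rose and 2.39% fell. Loxl2, a lysyl oxidase gene, stood at 62.8, 57.9 and 68.9 CPM in Grhl2_cKO replicates 1, 5 and 10, against 37.1, 36.5 and 35.6 CPM in control replicates 1, 3 and 7. All knockout libraries lay above all controls, as was so for 8.17% of all tested genes. The log2 fold change was 0.80 ± 0.08 (SE, n = 3 in each group, edgeR adjusted p = 0.00042), a call that was kept in each of 17 alternative fits. Loxl2 is also expressed by mesenchymal cells, and the summed mesenchymal markers were 1028, 497.2 and 589.1 CPM in Grhl2_cKO and 805.6, 678.4 and 510.7 CPM in controls, in overlapping ranges. Their part in this result was not tested.

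Heph, which encodes the copper-dependent ferroxidase hephaestin, stood at 15.6, 14.2 and 11.8 CPM in Grhl2_cKO replicates 1, 5 and 10, against 19.3, 20.6 and 19.6 CPM in control replicates 1, 3 and 7. All knockout libraries lay below all controls, as was so for 9.89% of all tested genes. The log2 fold change was -0.52 ± 0.12 (edgeR adjusted p = 0.038). The call was lost without Grhl2_cKO replicate 5 (0.107) or 10 (0.112), without control replicate 1 (0.0559), 3 (0.146) or 7 (0.0893) and in the male libraries only (0.0524), in a range of 0.0127 to 0.146 over 17 alternatives. Of the other lysyl oxidase genes, Lox was at 65.7 to 72.8 CPM in Grhl2_cKO and at 57.7 to 86.7 CPM in controls (edgeR adjusted p = 0.908). Loxl1 was at 19.5 to 26.1 CPM in Grhl2_cKO and at 18.3 to 20.3 CPM in controls (118.7% of control, edgeR adjusted p = 0.406), and Loxl3 was at 36.9 to 37.95 CPM in Grhl2_cKO and at 27.4 to 36.96 CPM in controls (113.01% of control, edgeR adjusted p = 0.587). Pam, which amidates peptides, was at 77.8 to 102.1 CPM in Grhl2_cKO and at 68.1 to 82.0 CPM in controls (edgeR adjusted p = 0.552). Cp, which encodes the ferroxidase ceruloplasmin, had the lowest log2 fold change of the 96 tested genes, at -0.70 (61.6% of control, edgeR adjusted p = 0.477). It was near the floor, with 8 to 23 counts per library, and its groups overlapped. The 7 members that were not tested, among them Sod3 at 0.52 CPM or less in each library, had 14 counts or fewer per library.

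The mitochondrial branch, which takes copper from Cox17 onwards, held no call. None of 13 tested delivery and assembly genes changed, with a median log2 fold change of 0.02 and a range of -0.13 to 0.14. The smallest p-values were those of Cmc2 at 18.2 to 19.8 CPM in Grhl2_cKO and 16.96 to 17.6 CPM in controls (edgeR adjusted p = 0.628), Cox19 (0.667) and Coa3 (0.828). Sco2 had no count in any library, which allows up to 0.178 to 0.224 CPM per library at 3 counts, if its reads could be counted. How reads with several matches or in shared exons were counted is not stated. A lack of Sco2 RNA can therefore not be read from this. For cytochrome c oxidase the list held the subunits from Cox4i1 to Cox8a and none encoded by mitochondrial DNA. The listed subunits likewise had 0 of 12 called, with a median of -0.03. Their smallest p-values were those of Cox4i2 (edgeR adjusted p = 0.457), Cox6c (0.699) and Cox7a2 (0.737). At an unadjusted p under 0.05 both lists also had 0 genes, against 13.3% of all genes.

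Metal uptake and storage genes gave no call either. Of 6 genes for metal reduction and uptake none changed, the smallest p-values being those of Steap4 at 5.68 to 6.55 CPM in Grhl2_cKO and 7.1 to 7.49 CPM in controls (edgeR adjusted p = 0.474), Slc11a2 (0.633) and Steap2 (0.637). None of 13 metal storage and response genes passed, and 1, Glrx, had an unadjusted p under 0.05. Glrx, which encodes glutaredoxin, was at 31.3 to 36.1 CPM in Grhl2_cKO and 26.0 to 28.8 CPM in controls and was the nearest to the threshold (edgeR adjusted p = 0.0673). The metallothionein gene Mt1, which rises when free metal rises, stood at 18.2, 18.8 and 30.3 CPM in Grhl2_cKO replicates 1, 5 and 10, against 40.1, 20.2 and 26.3 CPM in control replicates 1, 3 and 7. Its libraries spread widely in both groups (log2 fold change -0.36 ± 0.25, edgeR adjusted p = 0.688), so a moderate difference was not detectable. Mt3 was low, at 0.642 to 1.66 CPM in Grhl2_cKO and 0.224 to 0.774 CPM in controls (edgeR adjusted p = 0.552).

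Genes listed for movement of the pumps within the cell, not all of them traffic genes, gave no call in the main fit. Of 14 genes of the COMMD and Commander complexes, which recycle membrane proteins with Commd1, none changed, and log2 fold changes ran from -0.06 to 0.10. Commd4, Commd3 and Commd5 had the smallest p-values (edgeR adjusted p = 0.769, 0.867 and 0.945). Of 9 genes listed for vesicle traffic of the pumps, which include the transporter gene Slc33a1, none passed in the main fit. Of these 9 genes 1, Ap1m1, had an unadjusted p under 0.05. Ap1m1, an adaptor subunit, stood at 72.6, 64.7 and 65.7 CPM in Grhl2_cKO replicates 1, 5 and 10, against 55.97, 57.8 and 55.1 CPM in control replicates 1, 3 and 7 (log2 fold change 0.27 ± 0.07, edgeR adjusted p = 0.0584). Its knockout libraries all lay above its controls, as was so for 8.17% of all tested genes, and it passed in 2 of 17 alternatives. Cog1 and Ap1b1 came next (edgeR adjusted p = 0.677 and 0.732).

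Antioxidant enzymes, given beside Sod1, had 1 gene called lower among 19, against 2.39% of all tested genes. Prdx3, a mitochondrial peroxiredoxin gene, stood at 56.4, 51.2 and 58.9 CPM in Grhl2_cKO replicates 1, 5 and 10, against 67.3, 75.9 and 68.3 CPM in control replicates 1, 3 and 7. All knockout libraries lay below all controls, as was so for 9.89% of all tested genes. The log2 fold change was -0.34 ± 0.07 (edgeR adjusted p = 0.0334). The call was lost without Grhl2_cKO replicate 1 (0.0785), 5 (0.133) or 10 (0.0578), without control replicate 3 (0.139) or 7 (0.0656), with sex as a covariate (0.0552) and in the male libraries only (0.106), in a range of 0.0106 to 0.139. The manganese dismutase gene Sod2 was at 49.1 to 54.7 CPM in Grhl2_cKO and 48.7 to 56.5 CPM in controls (edgeR adjusted p = 0.95). Cat, which encodes catalase, and Gpx1, a glutathione peroxidase gene, did not pass either, at 0.09 (edgeR adjusted p = 0.64) and -0.12 (0.741) on the log2 scale.

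**Figure D3:**
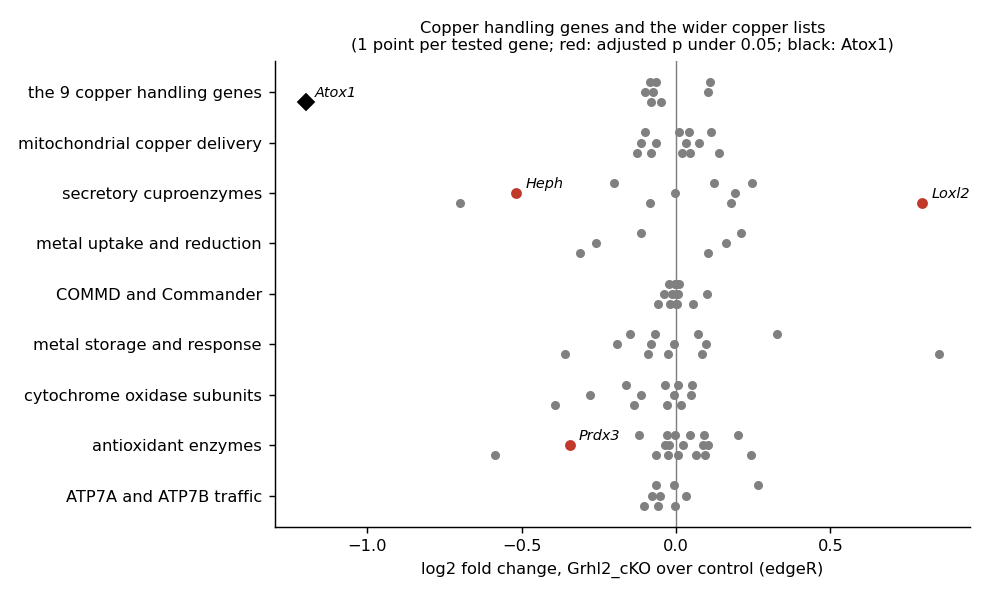
Log2 fold change, Grhl2_cKO over control (horizontal axis), of the 9 copper handling genes and of the 96 tested genes of 8 wider lists, 1 point per gene. Red points passed the edgeR threshold (Loxl2 at 0.80, Heph at -0.52 and Prdx3 at -0.34), grey points did not, and the black diamond is Atox1 at -1.20.

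Atox1 was then set beside its neighbours on chromosome 11, since position is a feature that did not choose the set. Of the 4 nearest tested genes on each side, 1 of 8 in all passed the test, as did 3.62% of all tested genes. These genes are not all close: 3 of the 4 at higher coordinates lie 2022 to 2184 kb away. Fat2, which encodes a giant protocadherin (chromosome 11, 55250609 to 55337505), stood at 19.2, 16.9 and 18.1 CPM in Grhl2_cKO replicates 1, 5 and 10, against 72.9, 60.6 and 57.7 CPM in control replicates 1, 3 and 7. Its groups lay far apart, with a log2 fold change of -1.82 ± 0.10 (SE, n = 3 in each group, edgeR adjusted p = 1.62e-05), and the call was kept in each of 17 alternative fits. Fat2 and Atox1 are 109.1 kb apart, and Sparc, a matrix protein gene, lies between them. Sparc stood at 848.9, 726.5 and 856.1 CPM in Grhl2_cKO and at 742.6, 667.8 and 628.4 CPM in controls (log2 fold change 0.25 ± 0.09, edgeR adjusted p = 0.198). RNA of other cell types was present in these libraries, and their part in the level of Sparc was not tested. On the other side G3bp1, an RNA-binding protein gene 8.45 kb from Atox1, lay at 0.01 ± 0.06 on the log2 scale (edgeR adjusted p = 0.986). The other 5 neighbours, Gm2a, Slc36a1, Fam114a2, Mfap3 and Galnt10, had log2 fold changes from -0.13 to 0.09.

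**Figure D4:**
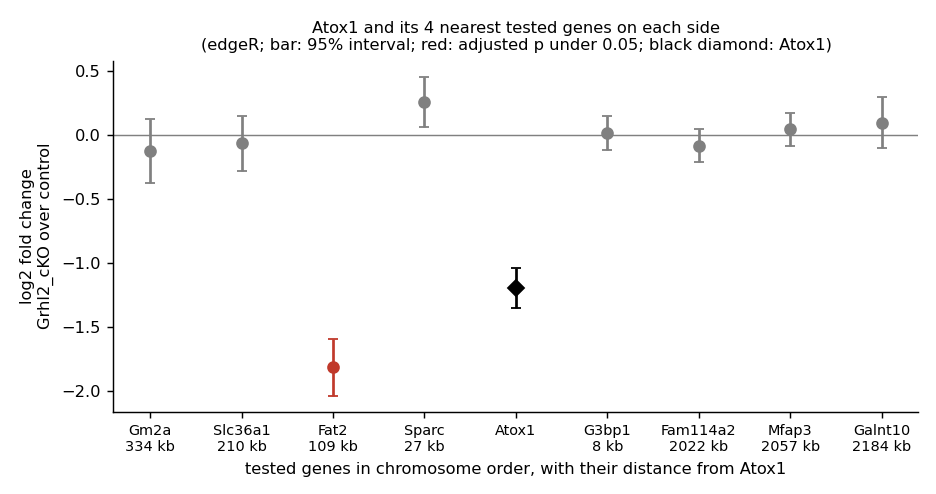
Log2 fold change, Grhl2_cKO over control (vertical axis), of Atox1 and its 4 nearest tested genes on each side in chromosome order, with 95% intervals of the edgeR fit and the distance from Atox1 in kb. Fat2 at -1.82 is the 1 neighbour past the threshold (red), Atox1 is the black diamond at -1.20, and Sparc between them lies at 0.25. The bar of Atox1 is a description, since its fall chose the set.

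The promoter window of Atox1 is shown because Grhl2 is a DNA-binding factor that recognises a known motif (GRCm38.p6, chr11:55461159-55461458, minus strand; RefSeq). Lower case marks the 250 bases before the gene's start and capitals mark the 50 bases from the start onwards.
Atox1 promoter: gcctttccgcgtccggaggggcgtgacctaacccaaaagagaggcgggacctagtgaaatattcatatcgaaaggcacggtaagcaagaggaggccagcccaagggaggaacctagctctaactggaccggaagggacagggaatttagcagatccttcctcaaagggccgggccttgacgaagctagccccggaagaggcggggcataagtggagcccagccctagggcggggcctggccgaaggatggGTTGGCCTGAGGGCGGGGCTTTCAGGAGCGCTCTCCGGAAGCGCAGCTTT

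The grainyhead motif AACCGGTT and its looser form AACNNGTT, each its own reverse complement so that both strands are covered, were searched in this window and in those of the other members. The looser form includes the strict one. RefSeq gave 8 windows for 7 of the 9 members, and none held either form. Of 32851 windows of the same length, 0.146% held the strict form and 4.2% the looser one. These letters are not in these windows, which says nothing of binding elsewhere.

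The genes with the nearest profile to Atox1 over the 6 libraries were chosen by the root mean square difference of log2(CPM + 0.5), with each gene's mean removed, among tested genes whose count averaged at least 50. They were an entry known here only by its number (Entrez 100043571, difference 0.09), Mgst1 (0.11), Ptgr1 (0.12), Mall (0.12) and Sfta2 (0.13). Mgst1 encodes a microsomal glutathione transferase and stood at 63.1, 50.2 and 55.5 CPM in Grhl2_cKO replicates 1, 5 and 10, against 126.4, 115.7 and 103.6 CPM in control replicates 1, 3 and 7. Ptgr1, a prostaglandin reductase gene, stood at 29.5, 24.9 and 28.01 CPM in Grhl2_cKO and at 79.96, 64.7 and 65.4 CPM in controls. Mall, a membrane raft protein gene, was at 3.2 to 3.43 CPM in Grhl2_cKO and at 7.92 to 8.71 CPM in controls. Sfta2, a surfactant-associated gene, was at 45.3 to 60.1 CPM in Grhl2_cKO and at 93.5 to 121.3 CPM in controls. The other copper handling genes lay far from Atox1 by this measure, at 0.55 to 0.67. Since the likeness is to a gene that separates the groups, these values are a description and carry no test.

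**Figure D5:**
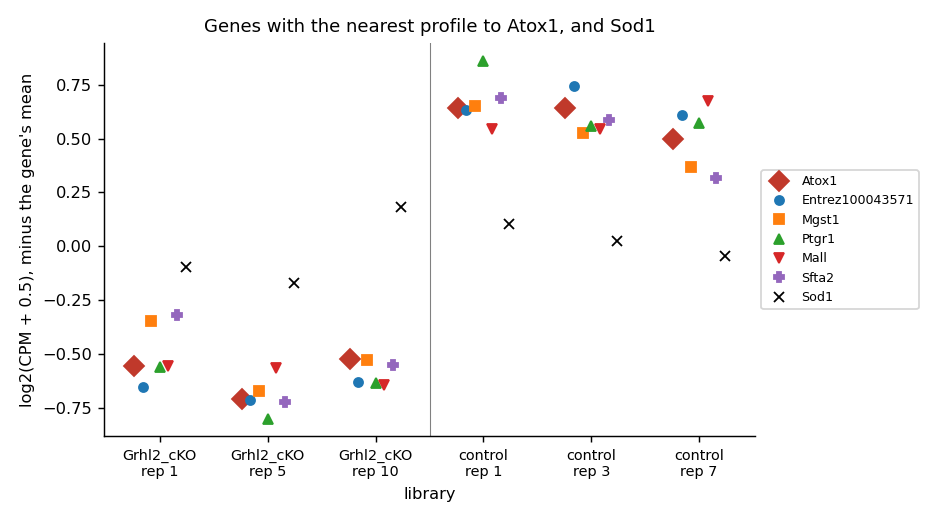
Log2(CPM + 0.5) minus each gene's mean (vertical axis) in the 6 libraries, Grhl2_cKO left of the line and control right of it, for Atox1 (large diamonds), the 5 genes nearest to it and Sod1 (crosses). The nearest genes lie below 0 in each Grhl2_cKO library and above 0 in each control, while Sod1 lies on both sides of 0 in Grhl2_cKO.

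The libraries held 13472216 to 17228762 counts. Grhl2 itself stood at 105.3, 109.2 and 115.3 CPM in Grhl2_cKO replicates 1, 5 and 10, against 149.2, 147.9 and 145.98 CPM in control replicates 1, 3 and 7. All 6 epithelial markers were present in each library, and some of them moved with the genotype. Epcam, which encodes the protein used for the sort, stood at 335.1, 346.2 and 402.7 CPM in Grhl2_cKO and at 558.7, 543.6 and 501.4 CPM in controls, or 67.6% of control (edgeR adjusted p = 0.0041). Krt8 (71.8% of control, edgeR adjusted p = 0.0832) and Cdh1 (83.0%, 0.21) did not pass. All their knockout libraries lay below all controls, as was so for 9.89% of all tested genes. Krt18 was at 77.2% of control (edgeR adjusted p = 0.317) with overlapping groups, and Sftpc and Nkx2-1 were at 106.4% and 103.02% (0.945 and 0.968). RNA of other cell types was present in both groups, and the sums of the red blood cell, endothelial and immune markers overlapped. The 4 red blood cell markers summed to 19.7 to 57.5 CPM in Grhl2_cKO and 20.6 to 57.3 CPM in controls, and the 4 endothelial markers to 120.4 to 130.7 CPM in Grhl2_cKO and 93.1 to 146.8 CPM in controls. The 5 immune markers summed to 7.76 to 14.6 CPM in Grhl2_cKO and 8.97 to 11.6 CPM in controls, with Cd3e at 0 in 5 of 6 libraries. The 4 mesothelial markers summed to 60.7, 20.9 and 19.5 CPM in Grhl2_cKO and 78.5, 39.7 and 45.9 CPM in controls, with 0 called. Of these Msln was at 33.5% of control (edgeR adjusted p = 0.0816), with all knockout libraries below all controls. Wt1, Upk3b and Lrrn4 had overlapping groups. In bulk samples, fewer cells of a type and less RNA per cell cannot be told apart, and airway cell markers moved with the genotype in the same direction as Atox1. The summed 8 ciliated cell markers were 119.4, 93.1 and 81.9 CPM in Grhl2_cKO and 213.8, 169.2 and 182.8 CPM in controls. Of these 8 genes, 7 were called lower, against 2.39% of all tested genes. The summed 5 secretory cell markers were 157.4, 84.4 and 84.4 CPM in Grhl2_cKO and 267.4, 228.8 and 197.8 CPM in controls. Of these 5 genes, 3 were called lower, against the same 2.39%. The 7 heart muscle markers summed to 401.8, 216.6 and 214.5 CPM in Grhl2_cKO and 186.3, 158.7 and 165.3 CPM in controls. By these sums all knockout libraries lay above all controls, but in replicates 5 and 10 most of the sum was Myh7. Among the heart muscle markers Myh7 was called higher, at 200.6, 191.6 and 195.99 CPM in Grhl2_cKO and 146.6, 138.5 and 139.2 CPM in controls (138.6% of control, edgeR adjusted p = 0.0012). Grhl2_cKO replicate 1 stood apart in the others, with Myh6 at 76.4 CPM there and at 9.19 to 14.4 CPM in the other 5 libraries. In replicates 5 and 10 Myh6, Tnnt2 and Actc1 lay within the control ranges. Tnni3 lay below its controls there, at 1.86 and 1.6 CPM against 2.44 to 3.29 CPM. Myl7 lay within or below its control range there, and Nppa within or above. The part of the epithelial, airway, mesothelial and heart markers in the fall of Atox1 was not tested. Without Grhl2_cKO replicate 1 the log2 fold change of Atox1 was -1.22, and none of the other 8 members was called.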

How the data were processed

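The authors deposited 1 table of raw counts for 27179 Entrez genes, with gene lengths. The submitters' processing notes name bcl2fastq 2.17.1.14, featureCounts, the build mm10, edgeR 3.16.5 and limma 3.30.12. For the aligner, the strand setting and reads with several matches nothing is stated: not given in the sources used here. Per the labels' protocols, libraries were stranded and made from polyadenylated RNA. Symbols and coordinates came from RefSeq (GRCm38.p6), which matched 92.99% of rows. No sample column was left unused.

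Groups came from the genotype in the sample descriptions. The fit across all genes used edgeR 4.0.16 in R 4.3.3 with TMM factors (0.981 to 1.009), a filter by group with filterByExpr (at least 10 counts, 15 in total), which left 14842 genes, then glmQLFit and glmQLFTest without covariates (prior count 0.125). Standard errors divide the absolute log2 fold change by the root of the F statistic, and intervals use the fit's total degrees of freedom. The code was tested on simulated counts. Genes were named by rule: the 9 members, called genes of each wider list or else its 3 with the smallest p, Sod2, Sod3, Cat and Gpx1, the 4 nearest tested genes on each side of Atox1 and the 5 nearest profiles. Mt1, Mt3, Lox, Loxl1, Loxl3, Gpx2, Pam, Cp, Sco2, Zrsr1 and the marker genes are named beside the rule. The members and lists were chosen with earlier results of these data known. Floors and intervals of counts cover counting error only. Alternatives tried were upper-quartile, RLE and unadjusted library sizes, no filter, 1 CPM in 3 libraries, DESeq2 1.42.0, limma-voom 3.58.1, legacy and robust quasi-likelihood fits, a sex covariate, male libraries only and leaving out each library.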

Additional observations from a re-analysis of the deposited data

How the results depend on the processing

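The log2 fold change of Atox1 was -1.26 to -1.14 over 17 alternatives (edgeR main value -1.20). None of the other 8 members was called in any of these fits, with adjusted p of 0.411 or more and log2 fold changes of -0.16 to 0.20. Near 0, signs turned without a call: without Grhl2_cKO replicate 5 the log2 fold change was 0.0017 for Slc31a2, 0.0025 for Commd1 and 0.021 for Sod1, and without control replicate 1 it was 0.0165 for Commd1, whose range over the libraries left out was -0.14 to 0.0165. In the wider lists the count of lower genes, 2, was 1 with sex as a covariate, 0 in the male libraries only, and 0 to 1 when 1 library was left out. Without Grhl2_cKO replicate 10 both Heph and Prdx3 were lost and the 1 lower gene was Gpx2, a glutathione peroxidase gene, with adjusted p = 0.0424 against 0.534 in the edgeR fit of all libraries. Gpx2 stood at 2.28, 2.44 and 5.74 CPM in Grhl2_cKO replicates 1, 5 and 10, and at 5.31, 6.15 and 4.32 CPM in control replicates 1, 3 and 7. The male fit and the fits with 1 library left out had fewer samples. The count of higher genes, 1, was 2 with upper-quartile factors and with DESeq2, where Ap1m1 joined Loxl2, and the cause was not tested. No paired analysis was possible because the groups share the single replicate number 1, and nothing ties those samples together. Scaling moved the median of all genes by less than 0.1 on the log2 scale. With 236 to 366 counts per library, Slc31a2, Atp7b, Ccs and Cox17 had the lowest counts of the set, with counting errors of 5.95% to 6.51% at their lowest counts.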
